A study of Mus musculus with 6 samples.

Results

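The keratins of simple and basal epithelium were described in *Uba6*-null and control 4T1 cells, a mouse mammary carcinoma line. The 9 listed genes were *Krt7*, *Krt8*, *Krt18*, *Krt19* and *Krt20* of simple epithelium, and *Krt5*, *Krt14*, *Krt17* and *Krt6a* of basal or stressed epithelium. Of these, 7 had a row among the 19255 genes of the expression table, and *Krt5* and *Krt6a* were not analysed here. A test was run on genes with at least 0.5 FPKM (fragments per kilobase of exon, scaled to the mapped fragments of the library) in at least 3 of the 6 libraries, which 12190 genes passed, among them 6 of the 7 keratins. *Krt20* did not pass.

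RNA was sequenced from 3 libraries of sgUba6 cells (labelled 4T1-KO, genotype UBA6 knockout) and 3 libraries of sgCtrl cells (labelled 4T1-NTC, genotype WT). According to the study's methods, *Uba6* guide RNAs were delivered by lentivirus to cells that expressed Cas9, followed by selection in puromycin. Neither the labels nor the methods say whether each line is a clone or a pool. The labels give the same treatment with a UBA6 guide and Cas9 vector for all 6 samples, the controls included. The labels do not say that the 3 libraries of a group came from separate cultures, so p-values measure the spread between these libraries, which may be technical.

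Keratins are the intermediate filament proteins of epithelial cells. A filament needs a type I and a type II keratin in equal amounts, and the genes of each type lie together in a cluster. Secretory and luminal cells of the mammary gland make the type II keratins 7 and 8 with the type I keratins 18 and 19, whereas basal cells make keratin 5 (type II) with keratin 14 (type I), and the type I keratins 16 and 17 and the type II keratin 6 appear in injured or stressed stratified epithelium.

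*Krt17* and *Krt14* went in opposite directions, and their mRNAs are much alike. In the GENCODE M21 transcripts (GRCm38), their coding sequences were 81.5% identical over 1299 aligned bases, with a longest identical run of 71 bases. The stretches most and least alike were sought only in aligned coding sequence without gaps and within a single exon. Over the whole transcripts, untranslated parts included, the longest identical run was also 71 bases. The stretches were not sought in untranslated parts, so they do not bound how well short reads can be assigned to either gene. In the most alike stretch of 100 bases, 99 were identical, and capitals mark the position that differs. It lies in exon 6 of both genes, at coding bases 1034 to 1133 of *Krt17* (chr11:100257481-100257580, minus strand) and 1145 to 1244 of *Krt14* (chr11:100204156-100204255, minus strand).
Krt17: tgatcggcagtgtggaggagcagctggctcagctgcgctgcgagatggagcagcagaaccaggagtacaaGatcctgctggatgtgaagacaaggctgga
Krt14: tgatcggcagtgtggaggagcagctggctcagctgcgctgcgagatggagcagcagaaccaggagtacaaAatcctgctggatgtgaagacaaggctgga

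In the least alike stretch, 73 of 100 bases were identical, and the positions in capitals differ. It lies in exon 1, at coding bases 329 to 428 of *Krt17* (chr11:100260538-100260637, minus strand) and 440 to 539 of *Krt14* (chr11:100206917-100207016, minus strand).
Krt17: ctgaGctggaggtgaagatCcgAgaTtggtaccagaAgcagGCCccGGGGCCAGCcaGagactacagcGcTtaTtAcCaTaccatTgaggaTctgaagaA
Krt14: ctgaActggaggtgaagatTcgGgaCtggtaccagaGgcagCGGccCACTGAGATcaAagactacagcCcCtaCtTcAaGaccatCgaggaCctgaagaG

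*Krt14* and *Krt16* were more alike still, at 84.5% identity over 1407 aligned bases with a longest identical run of 134 bases, and *Krt14* was far more abundant than *Krt16* or *Krt17*. The sources used here do not say how the authors' counting treated reads that match more than 1 of these genes, so part of a low level of *Krt16* or *Krt17* cannot be told apart from reads of *Krt14*. Transcripts were also searched for alignments to other genes of at least 200 bases with 95% identity over the whole alignment. None was found for *Krt7*, *Krt14*, *Krt17*, *Krt18*, *Krt19* or *Krt20*. The search would miss an alike stretch inside a longer, less alike alignment, so it does not show that such stretches are absent. *Krt8* shared 941 bases at 98.6% identity with the pseudogene *Krt8-ps*, which was at no more than 0.989 FPKM in any library.

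Of the 6 keratins tested, 3 were called between the groups. *Krt17* was higher in sgUba6 cells, and *Krt8* and *Krt14* were lower, at a Benjamini-Hochberg adjusted p under 0.05 from limma over all genes tested. Of all 12190 genes, 47.4% were called in either direction, 24.7% as higher and 22.7% as lower, so 3 called of 6 is near the share of all genes. The median log2 fold change of the 6 keratins was -0.07, against 0.01 over all genes tested, and the median absolute log2 fold change of all genes was 0.23. *Krt8*, *Krt14*, *Krt17* and *Krt18* had groups that did not overlap, which held for 57.6% of all genes tested. The smallest two-sided p that an exact permutation test allows with 3 libraries in each group is 0.1, so the calls depend on limma's model of the spread. In bulk RNA, fewer cells that make a keratin and less of its mRNA per cell cannot be told apart.

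Most of these keratins were among the most abundant mRNAs of the cells. FPKM are per length, so levels can be set side by side between genes. In sgUba6 cells the order of mean levels was *Krt18* (648 FPKM), *Krt8* (554), *Krt14* (327), *Krt7* (271), *Krt19* (130), *Krt17* (21.7) and *Krt20* (0.113). The order was the same in sgCtrl cells, at 663, 644, 400.1, 287, 135, 1.06 and 0.0142 FPKM. *Krt18* and *Krt8* overlapped between libraries in sgCtrl cells and were apart in sgUba6 cells, and no other neighbours in this order overlapped within a group. By mean level over the 6 libraries, *Krt18* ranked 52nd, *Krt8* 62nd, *Krt14* 106th, *Krt7* 141st and *Krt19* 359th of the 19255 genes.

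**Figure D1:**
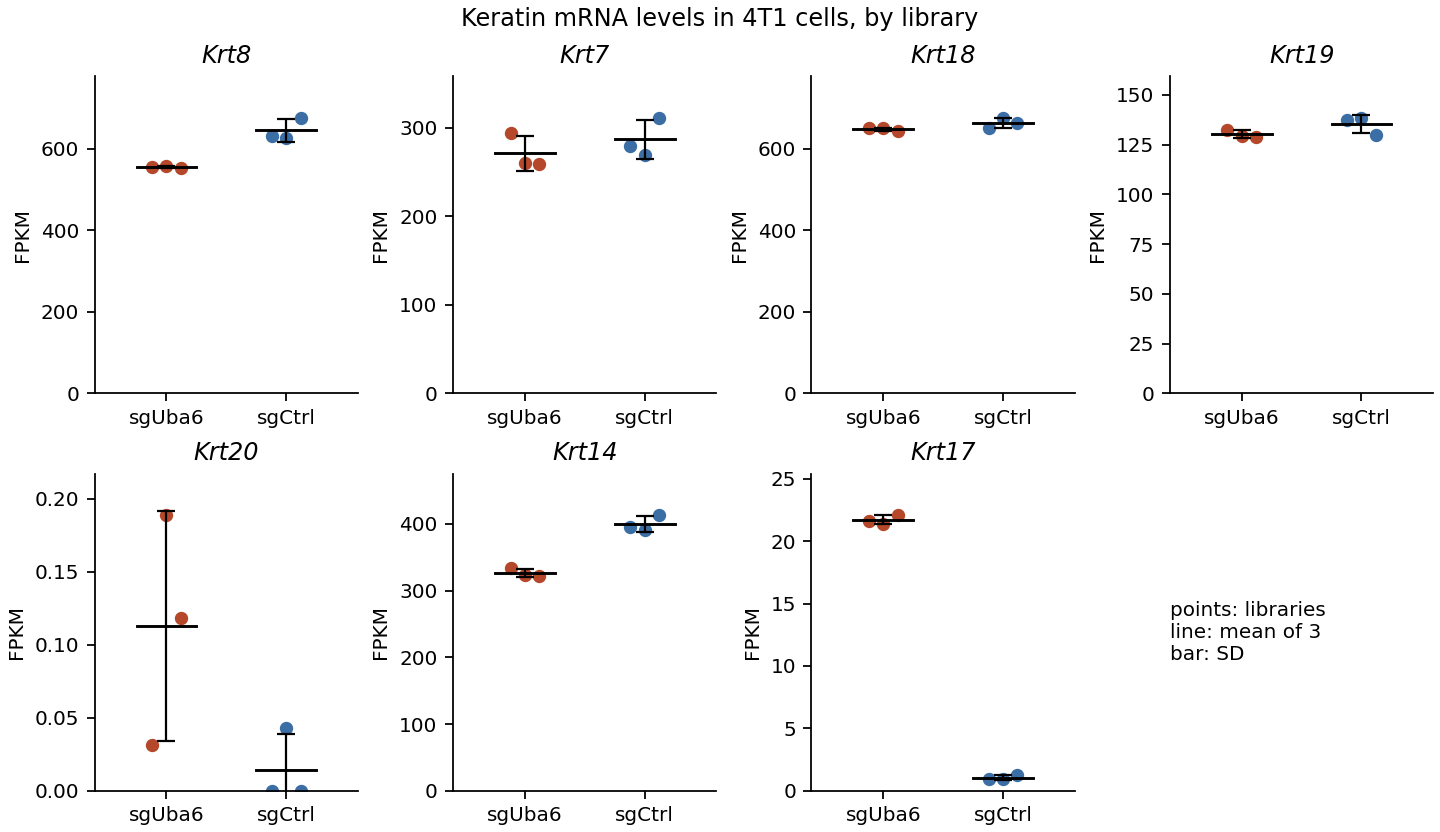
FPKM of the 7 keratins with a row (vertical axes from 0, a separate scale for each gene) in 3 sgUba6 and 3 sgCtrl libraries. Points are libraries, the line is the mean and the bar the SD. The *Krt17* libraries of sgUba6 cells lie between 21.4 and 22.1 FPKM, far above those of sgCtrl cells, whereas *Krt8* and *Krt14* lie lower in sgUba6 cells and *Krt7* and *Krt19* overlap.

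Of the type II keratins of simple epithelium, *Krt8* was lower in sgUba6 cells. *Krt8* (ENSMUSG00000049382, chr15:101996698-102004482, minus strand, 9 exons in the transcript used) encodes a type II keratin that is present from the early embryo onward and kept by luminal cells. It was at 555.6, 556.3 and 551.2 FPKM in sgUba6 libraries, against 630.6, 626.9 and 675.6 FPKM in sgCtrl libraries. All 3 sgUba6 libraries lay below the lowest sgCtrl library, and they differed less among themselves. The means were 554 ± 2.79 FPKM in sgUba6 cells and 644 ± 27.1 FPKM in sgCtrl cells (SD, n = 3 each), 14.0% lower. The log2 fold change was -0.22 (standard error 0.04, 95% interval -0.30 to -0.13, adjusted p = 0.00308 from limma), and -0.14 under quantile normalization (adjusted p = 0.0244).

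*Krt7* (ENSMUSG00000023039, chr15:101411043-101430313, plus strand), a type II keratin of ducts and glands, did not pass the test. It was at 293.8, 259.9 and 259.7 FPKM in sgUba6 libraries, against 279.7, 269.5 and 311.4 FPKM in sgCtrl libraries. The groups overlapped, since 1 sgUba6 library was higher than 2 of the 3 sgCtrl libraries. Its libraries varied most of the keratins above 100 FPKM, with a coefficient of variation of 7.24% in sgUba6 cells and 7.62% in sgCtrl cells. The log2 fold change was -0.08 (standard error 0.07, adjusted p = 0.385 from limma), and its 95% interval, -0.25 to 0.09, covers a decrease as large as that of *Krt8*. The antisense gene *Gm671* overlaps the start of *Krt7* and averaged 1.97 FPKM in sgUba6 cells and 1.37 FPKM in sgCtrl cells.

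The type I keratins of simple epithelium did not pass the test. *Krt18* (ENSMUSG00000023043, chr15:102028180-102032027, plus strand), the partner of keratin 8, was at 649.5, 650.1 and 643.5 FPKM in sgUba6 libraries, against 651.2, 675.7 and 662.4 FPKM in sgCtrl libraries. The sgUba6 libraries were all lower, but the nearest libraries of the groups were almost level. The log2 fold change was -0.03 (standard error 0.03, 95% interval -0.10 to 0.03, adjusted p = 0.368 from limma), and under quantile normalization of the libraries it was above 0, at 0.03. *Krt19* (ENSMUSG00000020911, chr11:100140810-100148665, minus strand), a keratin without the usual tail domain, was at 132.4, 129.5 and 128.7 FPKM in sgUba6 libraries, against 137.4, 138.6 and 130.0 FPKM in sgCtrl libraries. One sgCtrl library lay within the sgUba6 range. The log2 fold change was -0.05 (standard error 0.04, 95% interval -0.14 to 0.03, adjusted p = 0.263 from limma), and 0.01 under quantile normalization.

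*Krt20* (ENSMUSG00000035775, chr11:99428403-99438150, minus strand), a type I keratin of intestinal and urothelial cells, was close to 0. It was listed at 0.0311, 0.189 and 0.118 FPKM in sgUba6 libraries, against 0, 0.0427 and 0 FPKM in sgCtrl libraries. The groups overlapped, and it was not tested.

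*Krt14* was lower in sgUba6 cells. *Krt14* (ENSMUSG00000045545, chr11:100203162-100207548, minus strand) encodes the type I keratin of basal and myoepithelial cells. It was at 333.7, 323.4 and 322.6 FPKM in sgUba6 libraries, against 395.5, 391.5 and 413.4 FPKM in sgCtrl libraries. The groups were apart, with every sgUba6 library below every sgCtrl library. The means were 327 ± 6.20 FPKM in sgUba6 cells and 400.1 ± 11.6 FPKM in sgCtrl cells (SD, n = 3 each), 18.4% lower. The log2 fold change was -0.29 (standard error 0.03, 95% interval -0.37 to -0.21, adjusted p = 0.000572 from limma).

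*Krt17* (ENSMUSG00000035557, chr11:100256217-100261029, minus strand), a type I keratin of hair follicles and glands that is switched on in injured skin, was the listed keratin that differed most. It was at 21.7, 21.4 and 22.1 FPKM in sgUba6 libraries, against 0.958, 0.954 and 1.28 FPKM in sgCtrl libraries. The libraries of each group lay close together and the groups were far apart. The mean was 21.7 ± 0.366 FPKM in sgUba6 cells and 1.06 ± 0.186 FPKM in sgCtrl cells (SD, n = 3 each), a ratio of 20.4. The log2 fold change was 3.83 on the scale of log2(FPKM + 0.5), which understates changes of genes at low levels (standard error 0.09, 95% interval 3.61 to 4.06, adjusted p = 2.61e-06 from limma). With this constant of 0.5 it was the 2nd highest of the 12190 genes tested, and the rank depends on the constant. With a constant of 0.1 the log2 fold change of *Krt17* was 4.24, below the 4.43 of *Krt15*, a keratin outside the list. The calls of *Krt8*, *Krt14* and *Krt17* held under all 14 alternatives tried, which included leaving out each library.

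**Figure D2:**
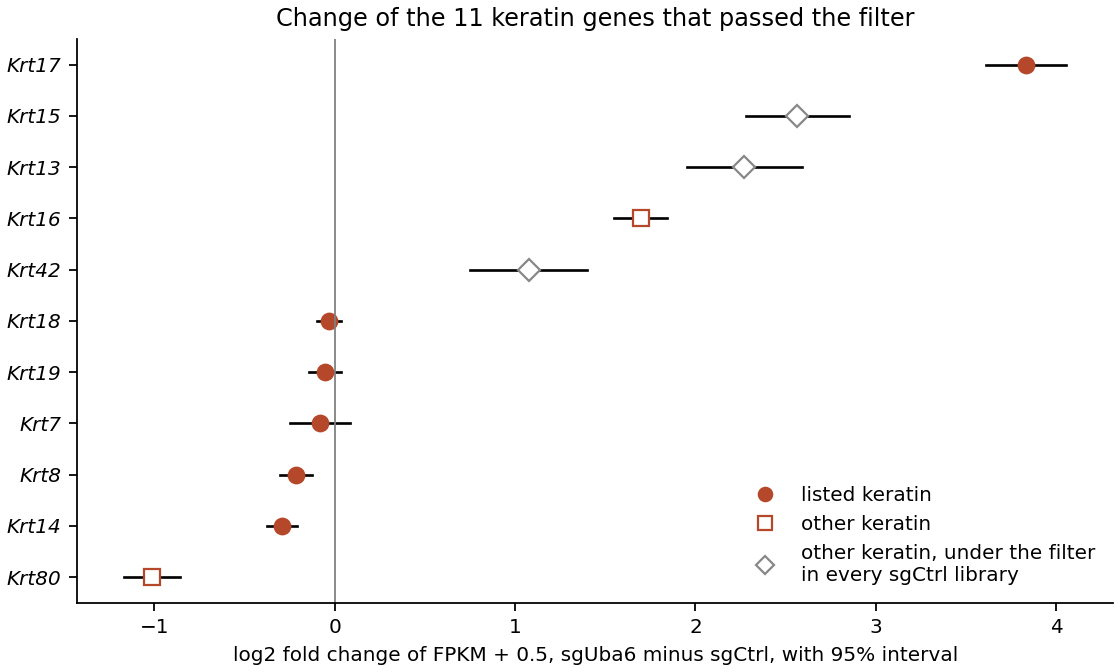
Log2 fold change of FPKM + 0.5 (horizontal axis, sgUba6 minus sgCtrl) with its 95% interval for the 11 keratin genes that passed the filter on low values. Filled circles are listed keratins, open squares other keratins, and grey diamonds other keratins that were under 0.5 FPKM in every sgCtrl library and had to be higher to be tested. *Krt17* is highest at 3.83, and the intervals of *Krt18*, *Krt19* and *Krt7* include 0.

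Ratios between keratins within a library do not change when all values of a library are scaled by a single factor. Quantile normalization can change them. The ratio of *Krt18* to *Krt8*, the obligate pair of simple epithelium, was 1.17, 1.17 and 1.17 in sgUba6 libraries, against 1.03, 1.08 and 0.980 in sgCtrl libraries. It was higher in each sgUba6 library. The ratio of *Krt14* to *Krt18* was 0.514, 0.497 and 0.501 in sgUba6 libraries, against 0.607, 0.579 and 0.624 in sgCtrl libraries, so *Krt14* was lower also relative to the type I keratin of simple epithelium in all 3 sgUba6 libraries. *Krt17* was 6.49%, 6.61% and 6.85% of the level of *Krt14* in sgUba6 libraries, against 0.242%, 0.244% and 0.309% in sgCtrl libraries. Although its mRNA differed so much between the groups, *Krt17* made up only 1.90% to 1.98% of the summed FPKM of the listed type I keratins in sgUba6 libraries, against 0.0790% to 0.106% in sgCtrl libraries.

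The mRNAs of listed type II keratins summed to 825.5 ± 20.9 FPKM in sgUba6 cells and 931 ± 48.8 FPKM in sgCtrl cells (SD, n = 3 each), and those of listed type I keratins to 1126 ± 10.2 FPKM in sgUba6 cells and 1200 ± 12.6 FPKM in sgCtrl cells. The ratio of type II to type I was 0.747, 0.726 and 0.726 in sgUba6 libraries, against 0.768, 0.743 and 0.818 in sgCtrl libraries, and the groups overlapped. The type II sum holds only *Krt7* and *Krt8*, since *Krt5* and *Krt6a* were not analysed. This ratio therefore does not measure the balance of the types in the cells. The summed basal and stress keratins, *Krt14* and *Krt17*, were 0.218, 0.216 and 0.218 of the summed simple keratins in sgUba6 libraries, against 0.233, 0.229 and 0.233 in sgCtrl libraries. This share was lower in every sgUba6 library, since *Krt14*, a far more abundant mRNA, was lower by more FPKM than *Krt17* was higher. It lacks *Krt5* and *Krt6a*, and *Krt16*, which is not a listed keratin and was higher in sgUba6 cells. The share therefore does not measure the balance of basal and simple keratins in the cells. All 7 keratins together were 0.547% to 0.559% of the summed FPKM of all genes in sgUba6 libraries, against 0.580% to 0.611% in sgCtrl libraries. These ratios of chosen genes were not tested.

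**Figure D3:**
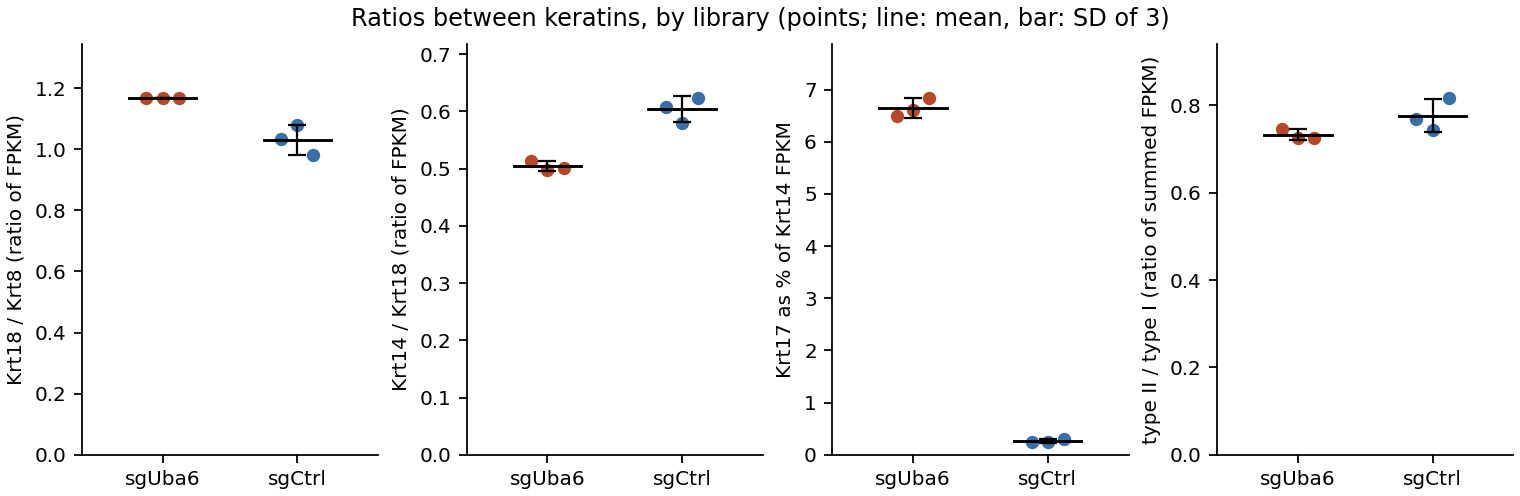
Ratios between keratins within each library (vertical axes from 0, a separate scale for each ratio) in 3 sgUba6 and 3 sgCtrl libraries, with the mean and SD. *Krt18* over *Krt8* and *Krt17* as a percent of *Krt14* are higher in every sgUba6 library, *Krt14* over *Krt18* is lower in every sgUba6 library, and type II over type I overlaps between the groups.

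The table holds 15 other keratin genes, of which 5 passed the filter. *Krt16* was higher in sgUba6 cells and *Krt80* was lower, and the other 3 could be tested only because they were higher. *Krt16* (ENSMUSG00000053797), a type I keratin that accompanies keratin 6 in wounded epidermis, was at 13.0, 13.0 and 12.7 FPKM in sgUba6 libraries, against 3.64, 3.87 and 3.44 FPKM in sgCtrl libraries. The groups were apart, and *Krt16* differed by 1.70 ± 0.06 on the log2 scale (standard error, limma adjusted p = 7.16e-06). *Krt80* (ENSMUSG00000037185), a type II keratin, was at 12.8, 13.1 and 13.0 FPKM in sgUba6 libraries, against 27.2, 28.6 and 24.4 FPKM in sgCtrl libraries. It had about the level of *Krt16* in sgUba6 cells and was far above it in sgCtrl cells, and differed by -1.01 ± 0.06 on the log2 scale (standard error, limma adjusted p = 4.84e-05).

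*Krt13*, *Krt15* and *Krt42*, all of type I, were under 0.5 FPKM in every sgCtrl library, so they passed the filter only through the sgUba6 libraries and had to differ. *Krt13* (ENSMUSG00000044041), of the upper layers of internal stratified epithelia, was at 3.57, 2.89 and 2.95 FPKM in sgUba6 libraries, against 0.195, 0.373 and 0.197 FPKM in sgCtrl libraries. *Krt15* (ENSMUSG00000054146), of basal keratinocytes and the hair follicle bulge, was at 2.68, 2.54 and 2.79 FPKM in sgUba6 libraries and listed at 0, 0.113 and 0 FPKM in sgCtrl libraries. *Krt42* (ENSMUSG00000053654) was at 0.559, 0.774 and 0.697 FPKM in sgUba6 libraries, against 0.103, 0.0720 and 0 FPKM in sgCtrl libraries. The groups were apart for each, but the size of the log2 fold change depended on the constant added to FPKM. With constants of 0.1 and 1 it was 3.22 and 1.72 for *Krt13*, 4.43 and 1.82 for *Krt15*, and 2.35 and 0.66 for *Krt42*. With the constant of 0.5 it was 2.27 for *Krt13*, 2.57 for *Krt15* and 1.08 for *Krt42*. These values are a description, and no p is given because the filter had fixed the direction. The 10 keratins that did not pass the filter were at no more than 0.532 FPKM in any library, the level of *Krt10* in 1 sgCtrl library.

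Within the type I cluster, neighbouring keratin genes differed in direction. From *Krt13* to *Krt42*, a stretch of 152.5 kb on chromosome 11 (GRCm38), 8 keratin genes had a row and 7 were tested. In order of position, *Krt19* did not pass the test, *Krt14* was lower in sgUba6 cells, and *Krt16* and *Krt17* were higher. *Krt13* and *Krt15*, on the far side of *Krt19*, and *Krt42*, next to *Krt17*, had to be higher to be tested and add nothing to this order, and *Krt9* was listed above 0 in 1 sgUba6 library only and was not tested. The 5′ end of *Krt17* is 12.1 kb from that of *Krt16*, 8.8 kb from that of *Krt42* and 53.5 kb from that of *Krt14*. Within 100 kb outside this stretch, 6 further genes that are not keratins were tested, named here by position after their values were seen. *Jup*, *Hap1*, *Gm14206* and *Gm12349* were higher in sgUba6 cells, with log2 fold changes of 0.63, 0.45, 1.02 and 1.33, and *Eif1* and *Gm10039* were lower, at -0.14 and -0.71. *Gm14206* and *Gm12349* averaged only 0.55 and 0.47 FPKM in sgCtrl cells, near the filter. Over all genes tested, 47.4% were called in either direction, and a part of position in these differences was not tested.

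**Figure D4:**
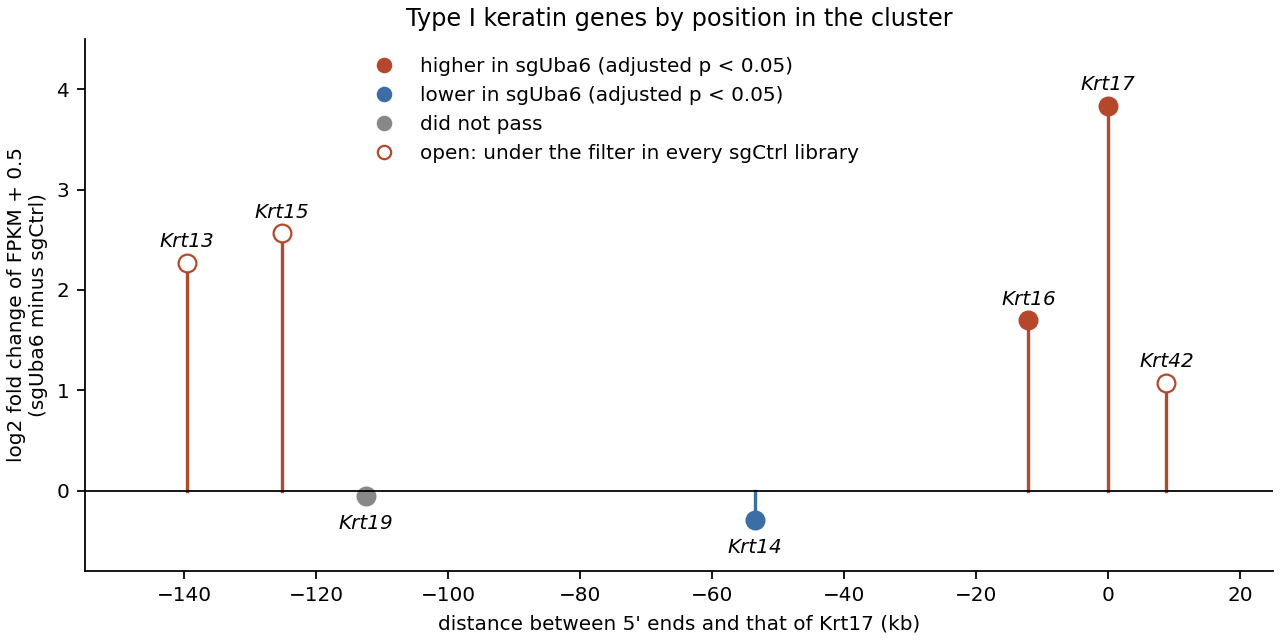
Log2 fold change of FPKM + 0.5 (vertical axis, sgUba6 minus sgCtrl) of the 7 type I keratin genes tested between *Krt13* and *Krt42*, by the distance of their 5′ ends from that of *Krt17* in kb (horizontal axis). *Krt14* lies at -0.29, *Krt19* at -0.05, *Krt16* at 1.70 and *Krt17* at 3.83. Open circles (*Krt13*, *Krt15* and *Krt42*) were under 0.5 FPKM in every sgCtrl library and had to be higher to be tested.

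The type II keratin genes lie on chromosome 15 together with *Krt18*, the 1 type I gene outside the type I cluster. *Krt8* and *Krt18* point away from each other, with their 5′ ends 23.7 kb apart, and 1 of this pair passed the test. From *Krt80* to *Krt18*, 684.6 kb, 4 keratin genes were tested, of which *Krt80* and *Krt8* were lower in sgUba6 cells. Of 6 other genes tested within 100 kb outside, 1, *Nr4a1*, was higher (log2 fold change 0.39) and none lower (adjusted p under 0.05 from limma), and it too was named after its values were seen. The share called in either direction over all genes tested was 47.4%.

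For each keratin tested, the 3 protein-coding genes whose log2 profile over the 6 libraries was most like it were found by the root mean square difference after each gene's own mean was subtracted. For *Krt17* they were *Gabrp* (0.123), *Tnc* (0.157) and *Adgrf5* (0.204). *Gabrp*, which encodes a subunit of the GABA-A receptor, averaged 8.63 FPKM in sgUba6 cells and 0.169 FPKM in sgCtrl cells, and *Tnc*, which encodes the matrix protein tenascin C, averaged 18.2 FPKM in sgUba6 cells and 0.960 FPKM in sgCtrl cells. *Krt14* was most like *Ubap2l* (0.0112), *Gtpbp1* (0.0149) and *Cbx5* (0.0170), and *Krt8* most like *Pcca* (0.00593), *Hnrnpa2b1* (0.00727) and *Skp1a* (0.00914). *Ogfrl1*, *Nudt2* and *Rundc1* were nearest to *Krt7*, and *Rad54l2*, *Tagln2* and *Prpsap1* to *Krt18*. Those near *Krt19* included *Hnrnpa0* and *Pik3c3*. The 6 libraries fall into 2 groups, so that a like profile is largely a like difference between them.

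Of 26 genes listed for linking keratin filaments to desmosomes and hemidesmosomes, 22 were tested, of which 11 were higher in sgUba6 cells, 4 lower and 7 did not pass, where 24.7% of all genes tested were higher and 22.7% lower (median log2 fold change 0.23, against 0.01 over all genes). *Dsc2*, a desmosomal cadherin, was at 7.61, 6.73 and 7.55 FPKM in sgUba6 libraries, against 1.81, 1.94 and 2.01 FPKM in sgCtrl libraries, with a log2 fold change of 1.69. *Evpl*, which encodes the plakin envoplakin, averaged 6.69 FPKM in sgUba6 cells and 2.32 FPKM in sgCtrl cells (1.35). *Dsg3*, another desmosomal cadherin, followed at 0.94, but was under 0.5 FPKM in every sgCtrl library and had to differ to be tested. *Jup*, which encodes the plaque protein plakoglobin, averaged 144 FPKM in sgUba6 cells and 92.8 FPKM in sgCtrl cells (0.63). The lower genes differed less. They were *Fam83h*, whose product binds keratin filaments (log2 fold change -0.30), *Perp*, a membrane protein of desmosomes (-0.29), and the plakophilins *Pkp3* (-0.25) and *Pkp1* (-0.22). Apart from *Dsg3*, for which no p is given, these genes had an adjusted p between 1.61e-05, for *Dsc2*, and 0.0360, for *Pkp1* (limma).

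**Figure D5:**
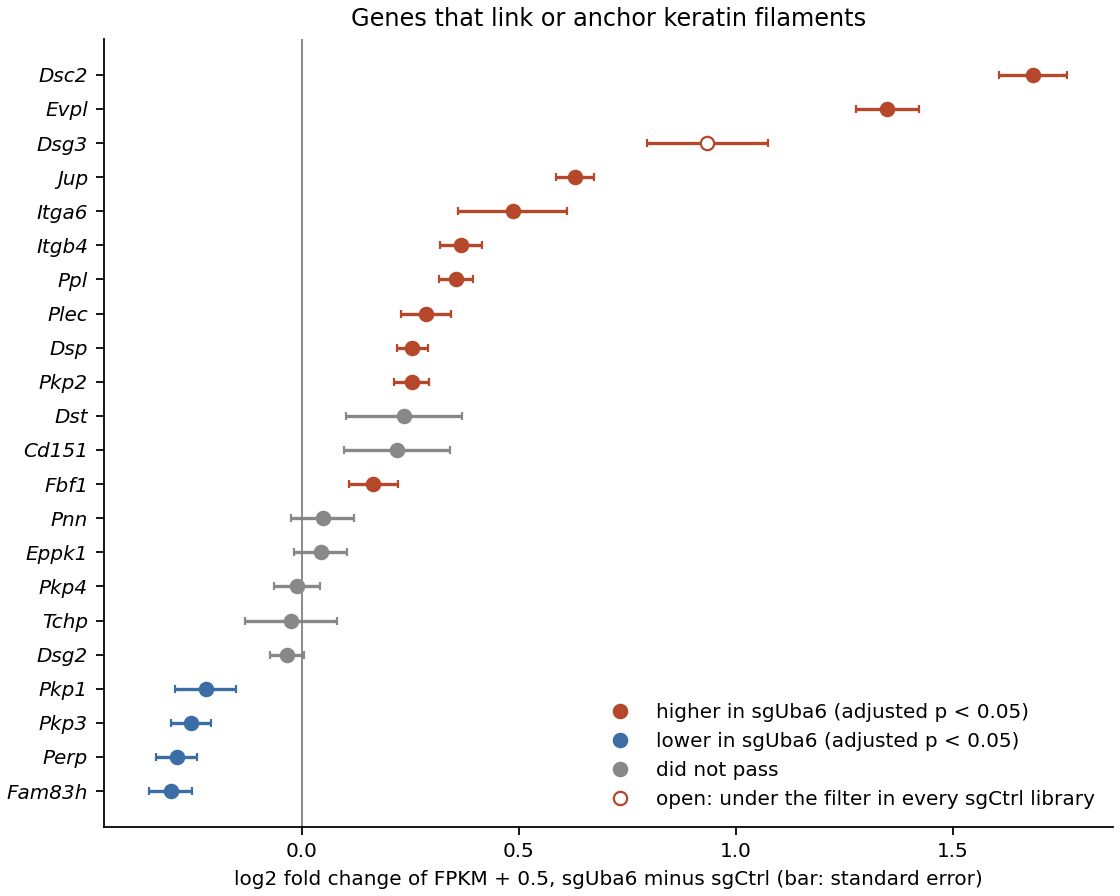
Log2 fold change of FPKM + 0.5 (horizontal axis, sgUba6 minus sgCtrl) with its standard error for the 22 genes tested that link or anchor keratin filaments. Of these, 11 lie to the right and 4 to the left at an adjusted p under 0.05, from *Dsc2* at 1.69 to *Fam83h* at -0.30, and *Dsg3* (open circle) had to be higher to be tested.

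Of 16 other intermediate filament genes, 6 were tested, of which 2 were higher in sgUba6 cells, 3 lower and 1 did not pass (47.4% of all genes tested were called). *Vim*, which encodes vimentin, the type III filament protein of mesenchymal cells and many cultured carcinoma cells, was at 289.8, 250.6 and 254.1 FPKM in sgUba6 libraries, against 129.7, 153.9 and 155.0 FPKM in sgCtrl libraries. Its level was lower than that of *Krt18* in every library, and the groups were apart by 0.86 ± 0.09 on the log2 scale (standard error, limma adjusted p = 0.000303). *Sync*, which encodes syncoilin, had a log2 fold change of 0.70 (limma adjusted p = 0.00535). The nuclear lamins *Lmnb1* (-0.46), *Lmnb2* (-0.38) and *Lmna* (-0.29) were lower, with an adjusted p of 0.00239 or less from limma.

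Of 22 markers of luminal mammary cells that are not keratins, 14 were tested, of which 11 were higher in sgUba6 cells, 1 lower and 2 did not pass (median log2 fold change 0.50), against 24.7% higher and 22.7% lower over all genes tested. *Ltf*, the milk protein lactoferrin, was under 0.5 FPKM in every sgCtrl library and had to differ to be tested (1.10 FPKM in sgUba6 cells, 0.00666 FPKM in sgCtrl cells). *Epcam*, an adhesion molecule of epithelial cells, averaged 229.6 FPKM in sgUba6 cells and 123.6 FPKM in sgCtrl cells (log2 fold change 0.90), and the transcription factors *Foxa1* and *Ehf* followed at 0.90 and 0.86, whereas *Lmo4* was lower (-0.63). Of 20 markers of basal and myoepithelial cells, 10 were tested, of which 4 were higher and 4 lower (median 0.05), against 47.4% called over all genes tested. *Trp63*, the transcription factor of basal cells, was at 1.83, 1.61 and 1.53 FPKM in sgUba6 libraries, against 0.210, 0.154 and 0.0924 FPKM in sgCtrl libraries, and *Cdh3*, which encodes P-cadherin, averaged 0.745 FPKM in sgUba6 cells and 0.110 FPKM in sgCtrl cells. Both were under the filter in every sgCtrl library and had to differ, so the filter had fixed the direction of these higher calls. *Procr* (log2 fold change 0.76) and *Lama3* (0.64) were also higher, and *Egfr* (-0.89), *Nrg1* (-0.63), *Lamb3* (-0.17) and *Sparc* (-0.10) were lower.

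Of 31 genes of squamous differentiation, 9 were tested, of which 4 were higher in sgUba6 cells and 2 lower (median log2 fold change 0.14), against 24.7% higher and 22.7% lower over all genes tested. *Cysrt1* (1.13), *Lypd3* (0.95), *Sbsn* (0.57) and *Cstb* (0.19) were higher. *Cysrt1* was at 1.74, 0.844 and 1.37 FPKM in sgUba6 libraries, against 0.412, 0.688 and 0 FPKM in sgCtrl libraries (standard error 0.34, adjusted p = 0.0315 from limma). With a constant of 0.1, a filter of 1 FPKM, quantile normalization or a replicate block, 3 genes of this list, not 4, were higher. The same held without some of the single libraries. The larger differences were decreases. *Klk10*, a secreted serine protease, averaged 3.88 FPKM in sgUba6 cells and 21.2 FPKM in sgCtrl cells (-2.31), and *Anxa8*, an annexin, 14.7 FPKM in sgUba6 cells and 43.5 FPKM in sgCtrl cells (-1.53). Of 41 transcription factors listed as known to act on keratin genes, 30 were tested, of which 12 were higher and 6 lower (median 0.10), so that 18 of 30 were called, against 47.4% of all genes tested. After *Trp63* (1.73), which had to be higher to be tested, the AP-1 members *Junb* (1.09) and *Fos* (0.88) and the ETS factor *Ehf* were highest. *Junb* averaged 289 FPKM in sgUba6 cells and 136 FPKM in sgCtrl cells. *Nfkb1* (-0.86), *Aire* (-0.71) and the AP-1 members *Fosl1* (-0.64) and *Fosl2* (-0.52) were lowest, of which *Aire* was tested only through its sgCtrl libraries and had to differ. *Nfkb1* averaged 46.7 FPKM in sgUba6 cells and 85.3 FPKM in sgCtrl cells. The calls of these lists are at an adjusted p under 0.05 from limma, and the part of any of these factors in the keratin levels was not tested.

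The labels and the cell type were checked in the same table. *Uba6* (ENSMUSG00000035898) was at 10.9, 12.1 and 12.0 FPKM in sgUba6 libraries, against 16.4, 16.4 and 17.0 FPKM in sgCtrl libraries (log2 fold change -0.49, adjusted p = 0.000601 from limma). These values concern the mRNA and do not measure the UBA6 protein. *Cdh1*, which encodes E-cadherin, averaged 234 FPKM in sgUba6 cells and 229 FPKM in sgCtrl cells and, with *Epcam*, *Krt8* and *Krt18*, marked both groups as epithelial. Of 12 leukocyte markers 5 had a row, with a sum of 17.1 to 18.5 FPKM in sgUba6 libraries and 7.73 to 8.69 FPKM in sgCtrl libraries. Most of it was *Cd68*, at 16.2 FPKM in sgUba6 cells and 7.73 FPKM in sgCtrl cells (log2 fold change 1.02, adjusted p = 3.83e-05 from limma). *Csf1r* averaged 1.51 FPKM in sgUba6 cells and 0.434 FPKM in sgCtrl cells, but had to be higher to be tested. *Ptprc*, which encodes CD45, was at 0.0195 FPKM or less in every library. Of 10 fibroblast markers 6 had a row, with a sum of 19.7 to 21.7 FPKM in sgUba6 libraries and 150.0 to 164.8 FPKM in sgCtrl libraries, nearly all of the sgCtrl sum being *Postn* (14.6 FPKM in sgUba6 cells, 154 FPKM in sgCtrl cells). *Pdgfra* went the other way, at 5.28 FPKM in sgUba6 cells and 2.69 FPKM in sgCtrl cells (log2 fold change 0.85, adjusted p = 0.000441 from limma). *Col1a1* averaged 0.854 FPKM in sgUba6 cells and 0.264 FPKM in sgCtrl cells, but was under the filter in every sgCtrl library and had to be higher to be tested. *Dcn* was listed at 0 in 5 of the 6 libraries. Of 8 endothelial markers, *Pecam1* had a row, at 0.214 FPKM or less. The part of these markers in the keratin levels was not tested. The summed FPKM of all genes were 352535 to 355425 in sgUba6 libraries and 358916 to 362762 in sgCtrl libraries, and the sequencing depth behind the values is unknown.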

How the data were processed

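The deposited table gives FPKM per gene for each library, and it holds values of no other samples. The study's methods have the authors trim reads with Cutadapt, align them to GRCm38 with HISAT2 and derive FPKM with StringTie and Cuffdiff, from a directional NEBNext kit. The submitters' processing notes name CASAVA 1.8, Trimmomatic, FastQC, HISAT2, RSEM, edgeR and mm10, and the labels a TruSeq kit. It is not stated which of these made the table, nor whether counting used strand. The deposited fold change (a ratio), p-value and q-value are the authors' own comparison and were not used. The study's methods test counts, and because the table holds FPKM, limma was used instead. Low FPKM did not fall on whole multiples of 1 read, so depth is unknown.

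A filter of 0.5 FPKM in 3 or more of the 6 libraries was applied. Log2(FPKM + 0.5) was fitted in limma 3.58.1 (R 4.3.3, trended eBayes), p-values were adjusted by Benjamini-Hochberg across every gene tested, and a gene was called at an adjusted p under 0.05. The fit was tested on simulated data. The keratins and gene lists were chosen with earlier results of these data known. Named were every listed keratin, up to 8 other called keratins, up to 4 called genes of each of 6 lists in each direction, *Vim*, the 3 genes with the most similar profile and *Uba6*. A gene that this rule names is not reported here. Transcripts were aligned with mafft 7.526 and searched with blastn 2.17.0. Plots used Python 3.11.15 and matplotlib 3.10.9. Alternatives changed the added constant, filter, scaling, trend or replicate block, or left out 1 library.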

Additional observations from a re-analysis of the deposited data

How the results depend on the processing

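In all 14 alternatives 1 listed keratin was higher in sgUba6 cells and 2 were lower. *Krt17* kept a log2 fold change of 3.46 to 4.24, *Krt14* of -0.31 to -0.20 and *Krt8* of -0.24 to -0.14, with an adjusted p of no more than 0.000352, 0.00615 and 0.0244 from limma. The direction of *Krt18* and *Krt19* turned under quantile normalization, to 0.03442 (adjusted p = 0.295 from limma) and 0.005855 (adjusted p = 0.906), and neither passed the test in any alternative. Without any 1 of the sgUba6 libraries 1 other keratin was called higher, of 2 tested, against 4 of 5 with all libraries, 3 of which had to be higher to be tested. The lowest and highest counts when leaving out a library were 1 and 4, because *Krt13*, *Krt15* and *Krt42* no longer reach the filter in 3 libraries. For the same reason 2 basal markers, not 4, were then higher. With no filter, 4 other intermediate filament genes, not 2, were higher, of 11 tested, and *Krt20* had a log2 fold change of 0.25 (adjusted p = 0.12 from limma). Replicate numbers did not pair the samples, since the deviations of same-numbered libraries had correlations of 0.0156, -0.0567 and -0.0223. With the replicate number as a block, 1 listed keratin was higher and 2 were lower, as without it, and 2718 of all genes were called higher and 2552 lower, against 3014 and 2769 without it. The intervals of *Krt7*, *Krt18* and *Krt19* include 0, and the depth behind each value is unknown.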
